A study of Homo sapiens with 4 samples.

Results

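Metallothioneins and the genes that set cellular zinc were followed in cells labelled as MG63, a human osteosarcoma line, after siRNA against KLF11 or a control siRNA. The set held 9 genes of the 57905 identifiers in the table, chosen by symbol, namely the metallothioneins MT1E, MT1F, MT1G, MT1H, MT1X and MT2A, the zinc-sensing factor MTF1, the zinc exporter SLC30A1 and the zinc importer SLC39A10. All 9 were found, each as a single row, and 7 of them reached a mean of 1 FPKM over the 4 libraries and could be tested. FPKM are fragments scaled to transcript length and to the size of the library. The groups were 2 libraries of cells transfected with KLF11 siRNA (siKLF11) and 2 of cells transfected with control siRNA (siNC). Both were grown in serum-containing medium and harvested 48 hours after transfection, and RNA was enriched for polyadenylated transcripts. The labels do not say that replicates were separate cultures, so the p-values rest on a spread among libraries that may be technical.

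Metallothioneins are small proteins whose many cysteines hold zinc, copper and cadmium. In human cells MTF1 senses free zinc through its zinc fingers, binds metal response elements in promoters and switches on metallothionein genes and SLC30A1, while glucocorticoids and oxidants also raise metallothionein transcripts. Zinc leaves the cytosol through exporters of the SLC30 (ZnT) family and enters it through importers of the SLC39 (ZIP) family, so that the transcripts of these families describe binding, export and import of the same metal.

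KLF11, the target of the siRNA, stood at 5.49 and 6.74 FPKM in KLF11 siRNA libraries and at 12.3 and 12.4 FPKM in control libraries (log2 change -0.92, SE 0.139, limma adjusted p = 0.00951). FPKM summed to 591043 and 604498 in KLF11 siRNA libraries and to 577849 and 582522 in control libraries, and no read depth can be had from them. Of 15320 genes tested, 2071 were higher and 3329 lower, and with median-of-ratios scaling 2728 were higher and 2664 lower. The median log2 change over all of them was -0.11, and -0.01 with that scaling. Genes of the osteoblast and mesenchymal marker list were present in part, beside markers of other cell types. ALPL, COL1A2, SPARC and FN1 averaged 92.4, 126, 744 and 189 FPKM in KLF11 siRNA libraries and 94.9, 130, 647 and 226 FPKM in control libraries. The osteoblast factor RUNX2 was at 0.60 and 0.65 FPKM in KLF11 siRNA libraries and at 0.03 and 0.02 FPKM in control libraries. COL3A1, POSTN and LUM averaged 1.175, 1.025 and 0.475 FPKM in KLF11 siRNA libraries and 0.005, 0.285 and 0.075 FPKM in control libraries. CDH11 and TWIST1 averaged 29.1 and 11.1 FPKM in KLF11 siRNA libraries and 1.32 and 0.935 FPKM in control libraries. Whether the cells match the MG63 label was not tested. The 9 pluripotency markers summed to 3001 and 2528 FPKM in KLF11 siRNA libraries, against 1855 and 1833 FPKM in control libraries. POU5F1 averaged 1216 FPKM in KLF11 siRNA libraries and 181 FPKM in control libraries, a rise larger than that of the whole sum. Limma called 5 of the 9 higher, namely POU5F1, NANOG, SOX2, DNMT3B and DPPA4. PODXL and LIN28A were lower, at means of 175 and 304 FPKM in KLF11 siRNA libraries against 424 and 390 FPKM in control libraries (limma adjusted p = 0.00254 and 0.0399). Over all tested genes 13.5% were called higher and 21.7% lower. The 8 early endoderm markers summed to 1305 and 3050 FPKM in KLF11 siRNA libraries, against 5148 and 5114 FPKM in control libraries. Most of that sum was CER1, with means of 1766 FPKM in KLF11 siRNA libraries and 4418 FPKM in control libraries. CER1, GSC and CXCR4 were not called (limma adjusted p = 0.0543, 0.0625 and 0.0673), while SOX17, FOXA2, GATA4 and GATA6 were called lower. For all 7 of these both KLF11 siRNA libraries were below both controls, as for 44.5% of all tested genes. EOMES was higher, at 272 FPKM in KLF11 siRNA libraries against 221 FPKM in control libraries (limma adjusted p = 0.0372). The 13 osteoblast and mesenchymal markers summed to 2037 and 2004 FPKM in KLF11 siRNA libraries, against 1301 and 1230 FPKM in control libraries. Most of that gain was VIM, with means of 804 FPKM in KLF11 siRNA libraries and 138 FPKM in control libraries, while COL1A1 was lower, at 13.8 FPKM in KLF11 siRNA libraries against 22.8 FPKM in control libraries (limma adjusted p = 0.0234). The 5 epithelial markers summed to 737 and 1007 FPKM, against 2114 and 1942 FPKM. None of these genes was listed at 0 in every library, while 4 leukocyte markers summed to at most 0.42 FPKM. The pluripotency, endoderm, mesenchymal and epithelial lists differed between the same groups, in differing directions. Their part in the results for the zinc genes was not tested. In such bulk libraries fewer cells of a type and less RNA per cell cannot be told apart.

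MT2A, the main metallothionein of many human cells, rose most of the set. It was at 32.4 and 30.5 FPKM in KLF11 siRNA libraries and at 6.41 and 5.19 FPKM in control libraries. Both KLF11 siRNA libraries lay far above both controls, and the replicates of each group were close. Means of 31.5 ± 1.29 FPKM with KLF11 siRNA and 5.80 ± 0.863 FPKM with control siRNA (SD, n = 2 each) gave a 5.42-fold difference with a log2 change of 2.26 on log2(FPKM + 1) (SE 0.131, limma adjusted p = 0.00218). That change stood at the 99.3 percentile of all tested genes, and MT2A went up in the order of mean levels, to the 80.1 percentile of tested genes in KLF11 siRNA libraries against the 34.6 percentile in control libraries. Its log2 change lay between 1.76 and 2.43 in all 12 settings of the fit that were run.

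MT1X, a metallothionein induced by metals in many tissues, rose less. It was at 13.3 and 10.99 FPKM in KLF11 siRNA libraries and at 6.33 and 7.15 FPKM in control libraries. The groups did not overlap, and the means of 12.2 ± 1.66 and 6.74 ± 0.580 FPKM (SD, n = 2 each) differed 1.80-fold (log2 change 0.76, SE 0.146, limma adjusted p = 0.0167). MT1E rose with 3.26 and 2.10 FPKM in KLF11 siRNA libraries against 1.01 and 0.36 FPKM in control libraries, a 3.91-fold difference of means (log2 change 1.14, SE 0.289, limma adjusted p = 0.0343). The lowest KLF11 siRNA library of MT1E was still above the highest control. MT1E reached the filter of 1 FPKM only through its KLF11 siRNA libraries, so a gene with its level had to differ in order to be tested, and with KLF11 siRNA replicate 1 left out the adjusted p rose to 0.106.

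MT1F did not pass the threshold. Its values were 6.48 and 5.23 FPKM in KLF11 siRNA libraries and 4.06 and 3.20 FPKM in control libraries, with no overlap (log2 change 0.57, SE 0.180, 95% interval 0.11 to 1.02, limma adjusted p = 0.0614). It passed with median-of-ratios scaling (adjusted p = 0.0382) and when replicate 2 of KLF11 siRNA was left out (adjusted p = 0.0473). MT1G stayed under the filter, at 0.56 and 0.15 FPKM in KLF11 siRNA libraries and at 0.36 FPKM in control replicate 1, and it was listed at 0 in control replicate 2. MT1H was listed at 0 in all 4 libraries. The metallothionein genes thus fell into 4 that were measured above the filter and 2 that were not.

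**Figure D1:**
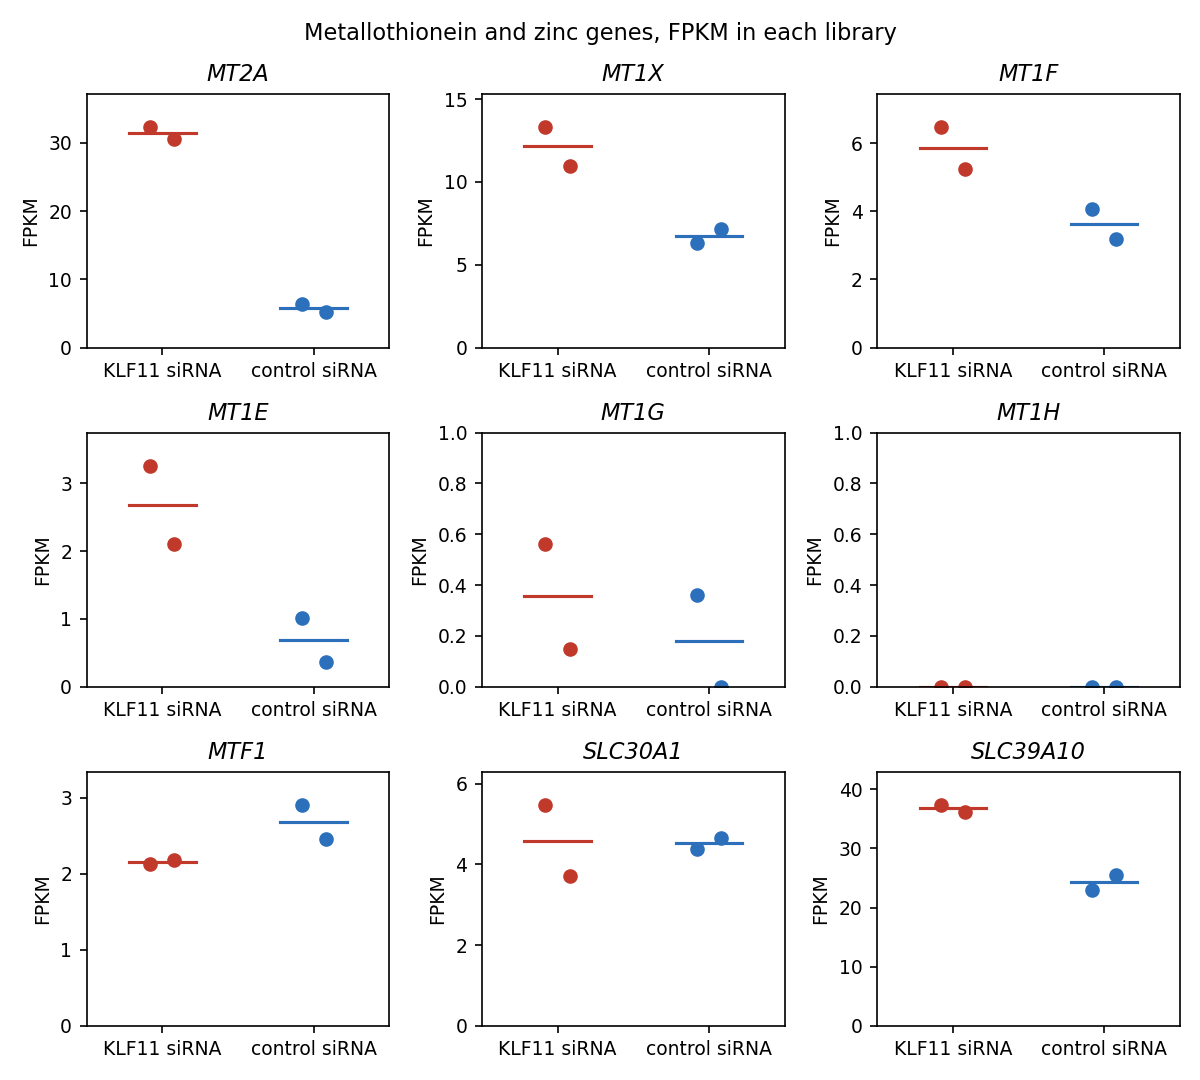
FPKM of each of the 9 genes (vertical axes, linear and starting at 0, scaled per gene), with 1 point per library, KLF11 siRNA left and control siRNA right, and a bar at the mean of 2 libraries. MT2A, MT1X, MT1F, MT1E and SLC39A10 have both KLF11 siRNA points above both control points, MTF1 has both below, and SLC30A1 and MT1G overlap.

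The coding sequences of the 4 measured metallothioneins are shown because their likeness bears on how surely reads could be assigned to each gene. They are read from GENCODE 29 principal transcripts on the plus strand of chromosome 16 and are written 5′ to 3′ in lower case, with the cysteine codons in capitals:
MT2A: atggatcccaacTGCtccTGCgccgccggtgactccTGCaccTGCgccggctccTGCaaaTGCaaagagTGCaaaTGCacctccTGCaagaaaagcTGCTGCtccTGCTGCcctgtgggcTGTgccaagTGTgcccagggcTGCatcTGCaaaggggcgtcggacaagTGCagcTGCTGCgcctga
MT1X: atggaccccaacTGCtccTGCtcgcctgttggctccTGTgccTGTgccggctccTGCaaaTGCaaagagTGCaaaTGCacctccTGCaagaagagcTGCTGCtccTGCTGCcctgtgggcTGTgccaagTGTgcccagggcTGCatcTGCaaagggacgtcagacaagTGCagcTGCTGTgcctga
MT1E: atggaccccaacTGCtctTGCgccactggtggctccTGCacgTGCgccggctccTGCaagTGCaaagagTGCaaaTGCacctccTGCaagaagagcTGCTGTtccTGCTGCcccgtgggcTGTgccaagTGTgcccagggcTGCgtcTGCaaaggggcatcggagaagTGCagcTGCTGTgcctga
MT1F: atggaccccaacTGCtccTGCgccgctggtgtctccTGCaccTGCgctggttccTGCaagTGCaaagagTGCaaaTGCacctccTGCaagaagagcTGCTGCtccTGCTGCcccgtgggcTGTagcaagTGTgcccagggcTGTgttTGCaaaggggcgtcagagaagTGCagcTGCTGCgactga
Each spans 186 bases and encodes 61 residues, of which 20 are cysteines (32.8%). MT2A and MT1X were identical at 92.5% of aligned bases, MT2A and MT1E at 92.5%, and MT2A and MT1F at 91.4%. Of the 50-base words in all GENCODE 29 transcripts of a gene, the share also found in another gene was 3.02% for MT2A, 1.22% for MT1F, 7.10% for MT1E and 18.3% for MT1X, and it was 16.5% for MT1G and 15.8% for MT1H. These words came from every transcript of a gene, 1390 for MT2A and 1971 for MT1F, where the coding sequence spans 186 bases. A low share therefore does not show that reads of the coding part were surely assigned. The gene sharing most words with MT1X was AC026461.1. The authors' software splits reads among matching transcripts, so the levels of all these metallothioneins are uncertain, with larger shares for MT1X, MT1G and MT1H. SLC30A1 and SLC39A10 shared no such word with another gene, and MTF1 shared 0.640%.

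The family was also summed. Because FPKM are scaled to transcript length, this sum still depends in part on how reads were split among members. The 11 functional metallothionein genes (the 6 above with MT1A, MT1B, MT1M, MT3 and MT4) summed to 56.1 and 49.3 FPKM in KLF11 siRNA libraries and to 18.2 and 15.9 FPKM in control libraries. The sums did not overlap, and the means of 52.7 ± 4.82 and 17.0 ± 1.61 FPKM (SD, n = 2 each) differed 3.10-fold. An exact permutation test gave a two-sided p of 0.33, the smallest that 2 against 2 libraries allow. The fold was 3.01 with scaling to TPM and 3.37 with median-of-ratios scaling, and it ran from 2.90 to 3.32 with each library left out in turn.

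The make-up of the family pool also differed between the groups. MT2A made up 57.7% and 61.9% of the summed FPKM in KLF11 siRNA libraries and 35.3% and 32.6% in control libraries. MT1X made up 23.8% and 22.3% in KLF11 siRNA libraries and 34.8% and 45.0% in control libraries. In control libraries the levels of MT2A and MT1X overlapped between the genes, with MT2A higher in replicate 1 and MT1X in replicate 2, whereas in KLF11 siRNA libraries MT2A was above MT1X in both. Of the difference in summed mean FPKM, 71.9% came from MT2A, 15.2% from MT1X, 6.23% from MT1F and 5.59% from MT1E. The other family members and pseudogenes added little. Of 13 further metallothionein genes and pseudogenes in the table none reached the filter, 8 were listed at 0 in every library, and the highest single value among them was 1.14 FPKM, for the pseudogene MT1P3 in control replicate 1.

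**Figure D2:**
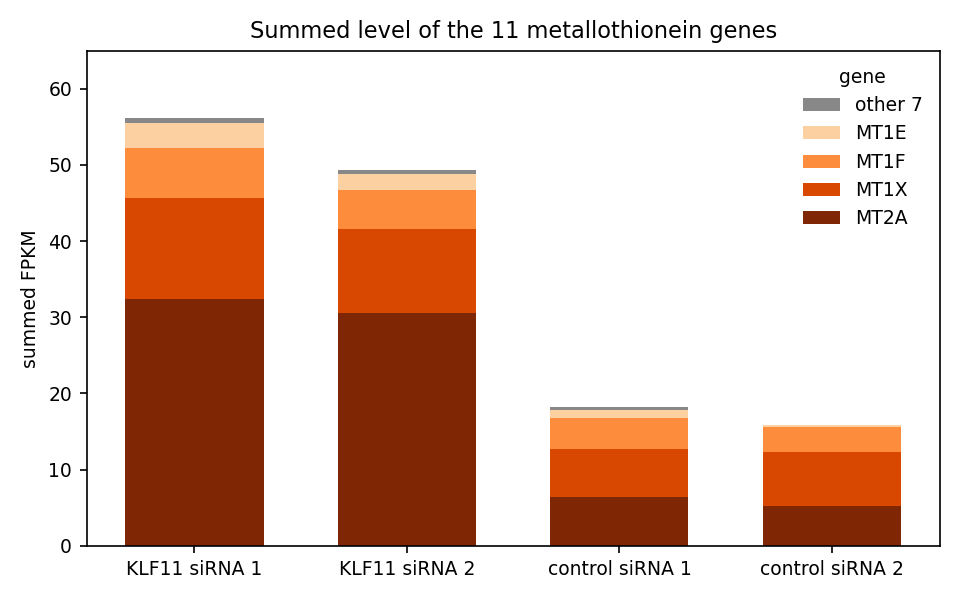
Summed FPKM (vertical axis, starting at 0) of the 11 functional metallothionein genes in each library, stacked by gene with MT2A at the bottom and 7 genes pooled at the top. The KLF11 siRNA bars reach 56.1 and 49.3 FPKM and the control bars 18.2 and 15.9 FPKM, and MT2A is the largest segment in both KLF11 siRNA bars.

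MTF1, the zinc sensor that drives these genes, was at 2.13 and 2.18 FPKM in KLF11 siRNA libraries and at 2.91 and 2.46 FPKM in control libraries. Both KLF11 siRNA values were below both controls, and the difference did not pass (log2 change -0.22, 95% interval -0.66 to 0.21, limma adjusted p = 0.356). SLC30A1, which encodes the plasma membrane exporter ZnT1 and is a known target of MTF1, was at 5.48 and 3.70 FPKM in KLF11 siRNA libraries and at 4.39 and 4.65 FPKM in control libraries. One KLF11 siRNA library was above and the other below both controls, with means of 4.59 ± 1.26 and 4.52 ± 0.184 FPKM (SD, n = 2 each). The 95% interval of its log2 change was -0.51 to 0.51 (limma adjusted p = 1.00), which leaves room for a change in either direction. Its sign depended on the library, at -0.23 without KLF11 siRNA replicate 1 and 0.23 without replicate 2, and on the scaling, at -0.04 with TPM and 0.10 with median-of-ratios scaling.

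SLC39A10, which encodes the plasma membrane importer ZIP10, rose. It was at 37.4 and 36.2 FPKM in KLF11 siRNA libraries and at 23.0 and 25.5 FPKM in control libraries, with no overlap. The means of 36.8 ± 0.827 and 24.3 ± 1.81 FPKM (SD, n = 2 each) differed 1.52-fold (log2 change 0.58, SE 0.0976, limma adjusted p = 0.012). Per length it was the most abundant transcript of the 9 genes in both groups.

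Counted over the set, 4 of the 7 tested genes rose, with 13.5% of all tested genes called higher, and none fell (limma; none at an unadjusted p under 0.05 either), with 21.7% of all tested genes called lower and 35.2% called either way. MT1E, which could be tested only because it was higher with KLF11 siRNA, is among the 4. Groups did not overlap for 5 of the 7 in the higher direction and for 1 in the lower, against 28.9% and 44.5% of all tested genes (73.4% in either direction). The genes had been chosen with results of these data known, so these counts describe the set and are no independent evidence. With either control library left out, limma called none of the 15320 genes in either direction, and then 4 (without control replicate 1) or 3 (without control replicate 2) of the set were higher at an unadjusted p under 0.05. In those fits the variance comes only from the KLF11 siRNA libraries, and the lone control is assumed to vary like them. The log2 change of MT2A was 2.39 and 2.13 in those fits, with adjusted p = 0.0808 and 0.0805. That of SLC39A10 was 0.51 and 0.66, with adjusted p = 0.115 and 0.0884. For MT1X the values were 0.69 and 0.84 (adjusted p = 0.147 and 0.115), and for MT1E 1.42 and 0.85 (adjusted p = 0.108 and 0.170).

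**Figure D3:**
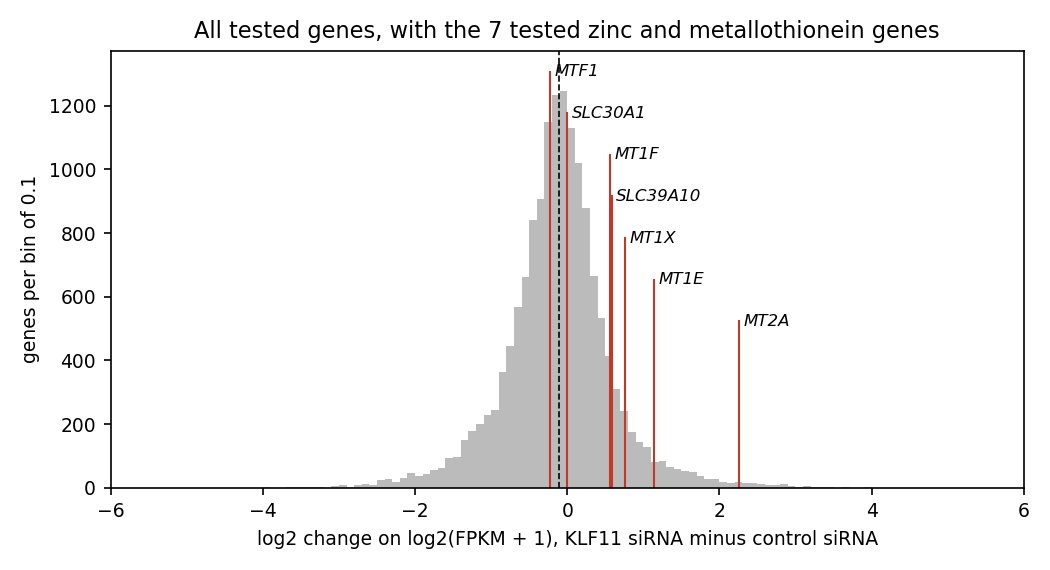
Histogram of the log2 change on log2(FPKM + 1) of all 15320 tested genes (grey, genes per bin), with red lines, whose height carries no value, at the 7 tested zinc and metallothionein genes and a dashed line at the median of -0.11. MT2A lies far in the right tail at 2.26, and SLC30A1 and MTF1 lie near the middle.

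Promoters are shown for the metallothioneins MT2A, MT1X and MT1H and for SLC30A1, since MTF1 is known to act through such sequences. Of these 4 genes MT2A and MT1X were called higher, SLC30A1 was not called and MT1H was not tested. The sequences are from RefSeq (GRCh38.p14), which is not the build of the deposited table, and run from 250 bases before to 50 bases after the gene start. Of the 9 genes, 6 had an entry, and MT1E, MT1F and MT1G did not. Capitals mark each match, on either strand, to the core of the metal response element, searched as TGCACNC and TGCGCNC:
MT2A, chr16:56608334-56608633, plus strand: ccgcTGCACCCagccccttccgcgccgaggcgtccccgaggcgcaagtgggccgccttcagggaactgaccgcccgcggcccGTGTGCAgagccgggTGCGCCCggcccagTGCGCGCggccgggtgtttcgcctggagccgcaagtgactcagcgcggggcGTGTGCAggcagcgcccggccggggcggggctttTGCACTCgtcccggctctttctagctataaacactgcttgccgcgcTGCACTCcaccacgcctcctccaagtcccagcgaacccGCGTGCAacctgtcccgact
MT1X, chr16:56682220-56682519, plus strand: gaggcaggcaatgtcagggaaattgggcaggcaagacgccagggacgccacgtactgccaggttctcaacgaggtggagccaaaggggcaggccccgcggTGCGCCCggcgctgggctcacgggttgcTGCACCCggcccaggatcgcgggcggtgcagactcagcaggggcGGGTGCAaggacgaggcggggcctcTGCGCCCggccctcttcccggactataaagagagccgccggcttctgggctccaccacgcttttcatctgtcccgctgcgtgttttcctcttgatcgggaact
MT1H, chr16:56669564-56669863, plus strand: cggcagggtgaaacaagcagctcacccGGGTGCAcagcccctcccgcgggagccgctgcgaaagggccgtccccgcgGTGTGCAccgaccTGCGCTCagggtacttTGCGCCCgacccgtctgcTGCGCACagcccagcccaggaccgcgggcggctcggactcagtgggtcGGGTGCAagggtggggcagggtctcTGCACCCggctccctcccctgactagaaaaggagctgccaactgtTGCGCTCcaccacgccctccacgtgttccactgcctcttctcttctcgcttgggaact
SLC30A1, chr1:211579112-211579411, minus strand: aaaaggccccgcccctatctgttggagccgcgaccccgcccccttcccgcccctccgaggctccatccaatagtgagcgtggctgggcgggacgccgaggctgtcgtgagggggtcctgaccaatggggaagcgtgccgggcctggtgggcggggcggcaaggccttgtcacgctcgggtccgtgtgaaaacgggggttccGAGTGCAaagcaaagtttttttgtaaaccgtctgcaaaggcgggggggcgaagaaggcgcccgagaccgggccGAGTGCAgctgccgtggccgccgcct
MT2A and MT1H had 8 matches each, MT1X 4 and SLC30A1 2, and no matches overlapped. Of 35116 promoters of the same length, 29.6% held at least 1 match and 2.30% held at least 3. MTF1 had none, and SLC39A10, which has 2 listed starts, had none at the first and 1 at the second. MT1H, listed at 0 FPKM in every library, thus had as many matches in this window as MT2A. The GC box GGGCGG, of the kind bound by SP and KLF proteins, was found on either strand 2 times in MT2A, 2 times in MT1X, 1 time in MT1H and 6 times in SLC30A1, and 45.0% of all promoters held at least 1. A match describes letters in this window and does not show binding.

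Among the other zinc importers, SLC39A8 and SLC39A6 rose and SLC39A4 and SLC39A11 fell. SLC39A8, which encodes the importer ZIP8 of zinc and manganese, was at 52.8 and 52.2 FPKM in KLF11 siRNA libraries and at 27.0 and 29.3 FPKM in control libraries (log2 change 0.88, limma adjusted p = 0.00467). SLC39A6, whose product ZIP6 pairs with ZIP10, was at 24.2 and 25.6 FPKM in KLF11 siRNA libraries and at 14.3 and 14.5 FPKM in control libraries (log2 change 0.75, limma adjusted p = 0.00662). For both, as for SLC39A10 and 28.9% of all tested genes, the lowest KLF11 siRNA library was above the highest control. SLC39A4, which encodes the importer ZIP4 that the gut uses to absorb zinc, was at 0.26 and 0.80 FPKM in KLF11 siRNA libraries and at 6.39 and 4.40 FPKM in control libraries (log2 change -2.07, limma adjusted p = 0.00686). SLC39A11 was at 4.65 and 3.47 FPKM in KLF11 siRNA libraries and at 10.4 and 7.66 FPKM in control libraries (log2 change -0.98, limma adjusted p = 0.0203). SLC39A4 reached the filter only through its control libraries.

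Over the whole ZIP family, 11 of 14 genes were tested, of which 3 rose, 2 fell and 6 did not pass, where 13.5% of all tested genes were called higher and 21.7% lower. The share that fell was near that of all genes. The median log2 change was -0.07, against -0.11 over all tested genes. Summed FPKM of the family was 348 and 327 in KLF11 siRNA libraries and 324 and 308 in control libraries. The most abundant importers with no call, SLC39A1 and SLC39A7, were at 72.0 ± 9.33 and 72.4 ± 3.99 FPKM in KLF11 siRNA libraries and at 79.3 ± 2.62 and 70.6 ± 5.90 FPKM in control libraries (SD, n = 2 each).

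Of the ZnT exporters 6 of 10 were tested. None rose (limma; none at an unadjusted p under 0.05, and 1, SLC30A6, with median-of-ratios scaling) and 1 fell, with a median log2 change of -0.08. With 13.5% of all tested genes called higher and 21.7% lower, these counts are no result about the family. The one that fell was SLC30A4, a vesicular exporter known for loading zinc into milk in mice, which was at 0.14 and 0.47 FPKM in KLF11 siRNA libraries and at 2.10 and 1.79 FPKM in control libraries (log2 change -1.18, limma adjusted p = 0.0177). It too reached the filter only through its control libraries. The most abundant exporters, SLC30A9, SLC30A5 and SLC30A6, averaged 32.5, 24.9 and 22.5 FPKM in KLF11 siRNA libraries and 38.5, 26.7 and 18.8 FPKM in control libraries, with no call for any.

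**Figure D4:**
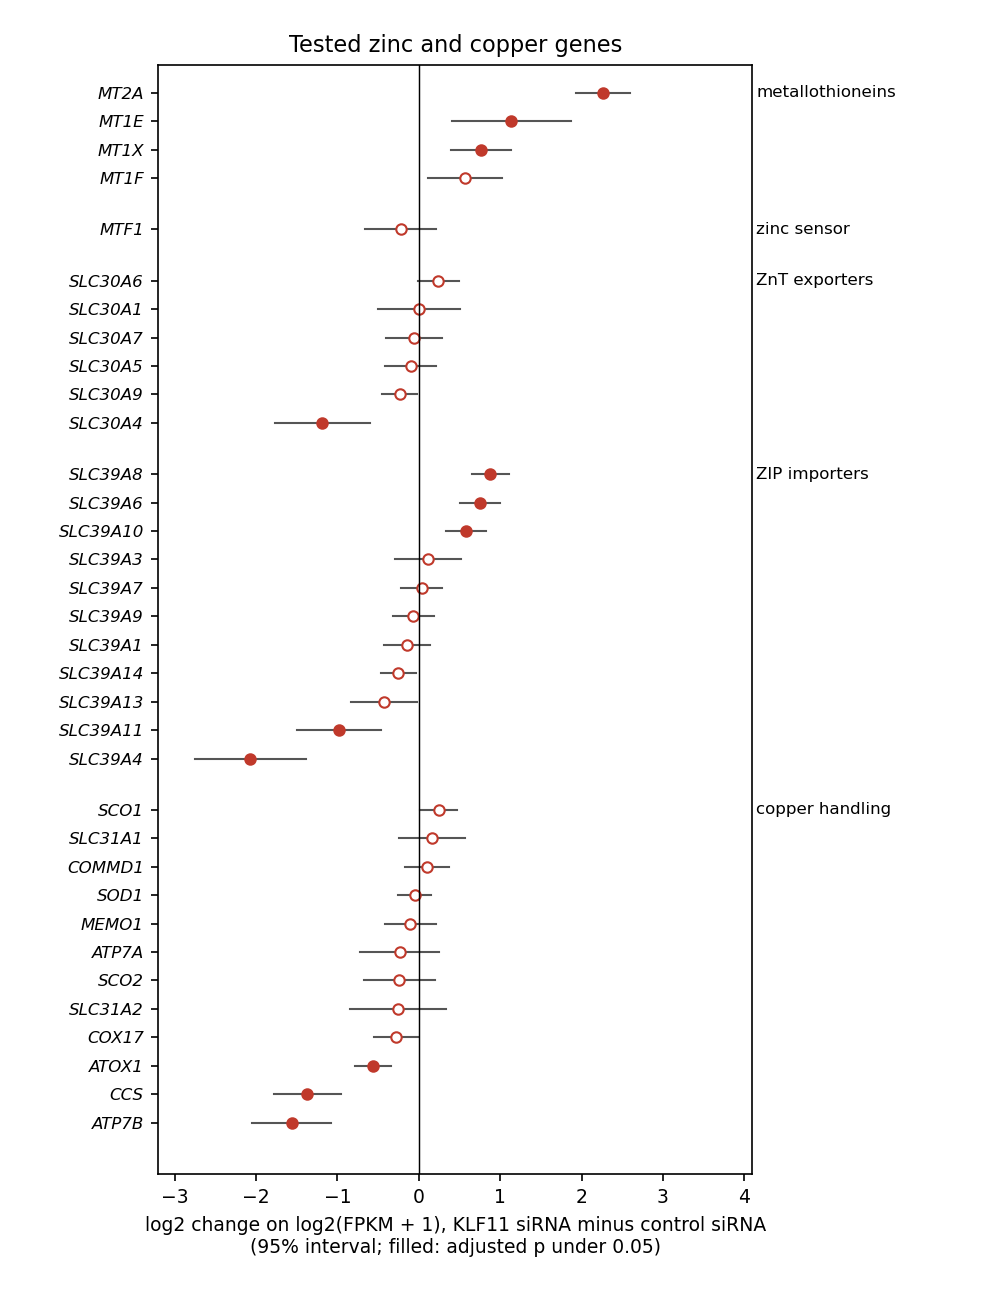
Log2 change on log2(FPKM + 1), KLF11 siRNA minus control siRNA (horizontal axis), with 95% intervals from limma, for the tested metallothioneins, MTF1, ZnT exporters, ZIP importers and copper genes, where filled points passed an adjusted p of 0.05. Metallothionein points all lie right of 0, ZIP importers spread to both sides, and the 3 filled copper genes lie left of 0.

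Metallothioneins also bind copper, and the copper genes were measured beside them. All 12 listed genes were tested, of which limma called 3 lower and none higher, with a median log2 change of -0.24. SCO1 was higher at an unadjusted p under 0.05 and passed with median-of-ratios scaling. Over all tested genes 13.5% were called higher, and the median log2 change was -0.11. CCS, the chaperone that hands copper to superoxide dismutase, was at 9.12 and 12.3 FPKM in KLF11 siRNA libraries and at 30.9 and 27.0 FPKM in control libraries (log2 change -1.37, limma adjusted p = 0.00583). ATP7B, the copper pump mutated in Wilson disease, was at 1.28 and 1.82 FPKM in KLF11 siRNA libraries and at 7.10 and 5.91 FPKM in control libraries (log2 change -1.56, limma adjusted p = 0.00611). ATOX1, which carries copper to such pumps, was at 49.2 and 52.6 FPKM in KLF11 siRNA libraries and at 77.6 and 73.2 FPKM in control libraries (log2 change -0.56, limma adjusted p = 0.0102). Each of the 3 had both KLF11 siRNA values below both controls, as had 7 of the 12 copper genes and 44.5% of all tested genes. The share that fell, 3 of 12, was near the 21.7% of all tested genes.

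The metallothionein genes sit side by side on chromosome 16, and the genes flanking them did not share one direction. On the side of MT2A, BBS2, part of a complex of the primary cilium, was at 11.4 and 11.8 FPKM in KLF11 siRNA libraries and at 31.0 and 28.0 FPKM in control libraries (log2 change -1.27, limma adjusted p = 0.00326). OGFOD1, a prolyl hydroxylase of a ribosomal protein, was at 30.7 and 30.3 FPKM in KLF11 siRNA libraries and at 23.3 and 23.9 FPKM in control libraries (log2 change 0.35, limma adjusted p = 0.0323). NUDT21, a subunit of a factor that cleaves pre-mRNA for polyadenylation, was at 74.6 and 67.7 FPKM in KLF11 siRNA libraries and at 53.5 and 58.1 FPKM in control libraries (log2 change 0.35, limma adjusted p = 0.0426). Of 6 tested neighbours 3 rose and 1 fell, where 13.5% of all tested genes were called higher and 21.7% lower, the other rise being HERPUD1 (log2 change 0.58), named after its values were seen. No rise of the 3 was called with the replicate number as a block, with no filter, without a variance trend or without KLF11 siRNA replicate 1, and 1 was called with scaling to TPM. NUP93, a nuclear pore gene and the first listed gene beyond MT1X, was at 42.8 and 46.1 FPKM in KLF11 siRNA libraries and at 43.9 and 39.4 FPKM in control libraries (log2 change 0.09, limma adjusted p = 0.502). MT2A and BBS2, separated among the listed protein-coding genes only by MT4 and MT3, both listed at 0, had changes of opposite sign.

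**Figure D5:**
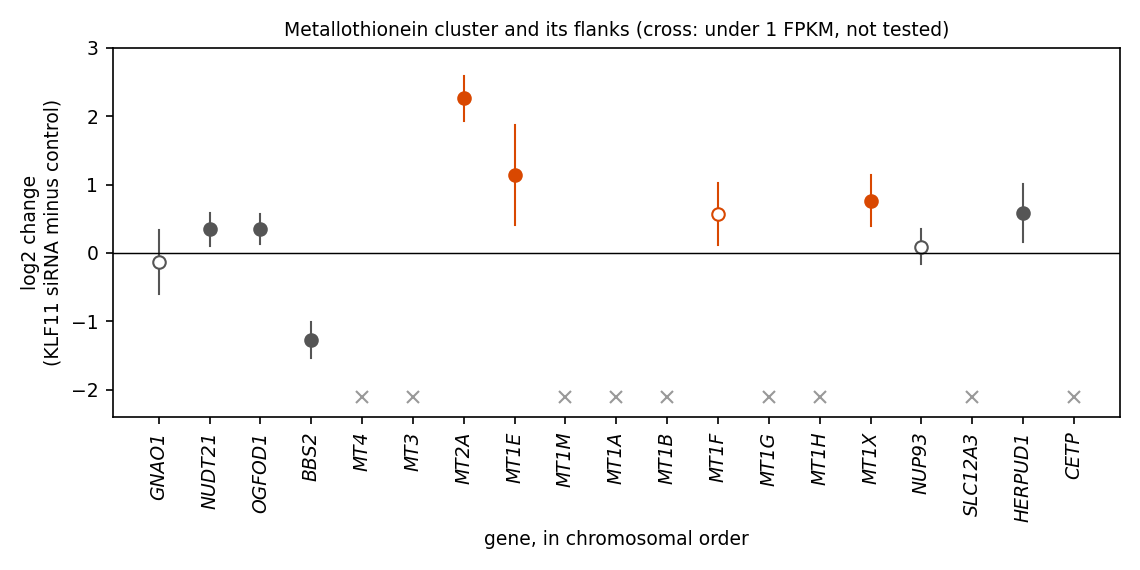
Log2 change on log2(FPKM + 1), KLF11 siRNA minus control siRNA (vertical axis, 95% intervals from limma), of listed protein-coding genes across the metallothionein cluster in chromosomal order (horizontal axis), with metallothioneins in orange, flanking genes in grey, calls filled and untested genes as crosses. MT2A stands at 2.26 and its flank BBS2 at -1.27.

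Genes on any list used here, neighbours and cell type markers included, were left out of a search by profile over the 4 libraries. The remaining genes with a symbol nearest to the mean of the 4 tested metallothioneins were MCUB, HS6ST2, MYL9, NLGN1 and ABHD12B. Likeness was the Euclidean distance between profiles of log2(FPKM + 1), each centred on its own mean, and it ran from 0.0381 for MCUB to 0.0690 for ABHD12B. MCUB, which encodes a subunit of the mitochondrial calcium uniporter, was at 7.17 and 6.04 FPKM in KLF11 siRNA libraries and at 2.62 and 2.05 FPKM in control libraries. MYL9, a myosin light chain, was at 366 and 291 FPKM in KLF11 siRNA libraries and at 151 and 132 FPKM in control libraries. With 4 libraries in 2 groups such likeness describes little more than a similar fold between the groups.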

How the data were processed

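The authors deposited FPKM values with 1 column per library, per the file headers. The submitters' processing notes list RSEM 1.3.1, Trim Galore 0.5.0 and the build hg19 (GRCh37), with no roles or order. The aligner, annotation release and strand setting were not given in the sources used here. Groups came from the sample titles, and 0 columns lacked a sample. Replicates correlated at 0.976 (KLF11 siRNA) and 0.982 (control siRNA) across genes, with at most 0.548% of tested genes identical, so none were merged.

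Genes with a mean of at least 1 FPKM entered the limma test (limma 3.58.1, R 4.3.3) on log2(FPKM + 1), with a variance trend and Benjamini-Hochberg adjustment over all 15320 genes at 0.05, which understates the change of low genes. The test was run on simulated data with far fewer changed genes than were called here and with independent noise. That simulation cannot gauge the error of the calls in these libraries. The genes, lists and rules were chosen with earlier results of these data known. Named by rule were the 9 genes, called members of the zinc lists, up to 3 copper genes and 3 neighbours with the smallest p, KLF11 and the 5 nearest profiles. Cell type markers, HERPUD1, NUP93, SCO1 and the uncalled transporters SLC39A1, SLC39A7, SLC30A5, SLC30A6 and SLC30A9 were named outside that rule. Alternatives were pseudocounts of 0.1 and 5, no filter, TPM and median-of-ratios scaling, no trend, a replicate block and each library left out. Sequences and gene order came from GENCODE 29 and RefSeq, both GRCh38. The promoter coordinates given above are in that build and not in the hg19 build of the deposited values. A neighbour of the cluster is not reported here. Figures were drawn with matplotlib 3.10.9.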

Additional observations from a re-analysis of the deposited data

How the results depend on the processing

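The rises of MT2A and SLC39A10 passed in all 8 settings that kept every library, and their sign was kept in all 12 settings. With no filter on low values, where more genes share the adjustment, limma called 887 genes higher and 1251 lower, with 2 of the zinc and metallothionein genes higher. MT1X and MT1E then had adjusted p = 0.0601 and 0.118. In that setting 0 ZnT exporters and 1 ZIP importer fell, and of the cluster's neighbours 0 rose and 1 fell. With median-of-ratios scaling 1 ZnT exporter and 1 copper gene rose. Of the neighbours, 1 rose with scaling to TPM and 0 without a variance trend; the cause was not tested.

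Labels do not say that equal replicate numbers mark pairs, and the deviations of replicate 1 from the group means correlated at -0.0711 between the groups. With the replicate block 4 of the zinc and metallothionein genes rose, as without it, over all genes 1707 rose and 2644 fell, and 0 neighbours rose.

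With 1 library left out at a time, the lowest and highest counts were 0 and 2291 for all genes higher, 0 and 3813 for all genes lower, and 0 and 5 for the set's rises. They were 0 and 1 for ZnT exporters lower, 0 and 3 for ZIP importers higher, 0 and 3 for ZIP importers lower, 0 and 3 for copper genes lower, 0 and 3 for neighbours higher, and 0 and 1 for neighbours lower. Each 0 came from leaving out a control library, and for neighbours higher also from leaving out KLF11 siRNA replicate 1. At an unadjusted p under 0.05, limma had 1826 genes higher and 2635 lower without control replicate 1, and 1761 and 3032 without control replicate 2. Depth is unknown, which limits what can be said of MT1G, MT1H and other genes listed near 0.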
